A study of Sus scrofa with 12 samples.

Results

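NDNF and SH3TC2 are a pair of genes that stood lower in the ovaries of gilts at estrus than in those of gilts in which no estrus was recorded. They were taken up because of that difference, so their values between the groups are a description and carry no test. Each gene has 1 row in the deposited table, and together they make 2 of its 29150 loci. The measurements are RNA levels per gene in the whole left ovary of 12 New French Yorkshire gilts (young female pigs), whose estrus was watched for from day 165 of age. In the 6 ES gilts estrus recurred, and they were slaughtered during the third one. The 6 NES gilts had shown none, and each was a full sister of an ES gilt. Age at death is not given in the sources used here, and the labels name no treatment.

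NDNF encodes neuron-derived neurotrophic factor, a secreted glycoprotein with fibronectin type III domains. In mice it is known to support neurons and, in ischaemic muscle, the survival of endothelial cells through integrins, AKT and endothelial nitric oxide synthase. In humans, loss of NDNF has been linked to hypogonadotropic hypogonadism with loss of smell, and the protein can dampen signalling through the fibroblast growth factor receptor FGFR1. SH3TC2 encodes an adaptor with SH3 domains and tetratricopeptide repeats that sits on recycling endosomes and binds the small GTPase RAB11. In humans its loss causes an inherited demyelinating neuropathy, and in mouse Schwann cells it helps to control uptake of the neuregulin receptor ERBB2.

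Whole ovaries were used, so fewer cells of a type and less RNA per cell cannot be told apart in any value that follows. Libraries held 58140547 to 68961955 counts, and 20421 loci whose mean FPKM (a level scaled to transcript length and library size) reached 0.5 were tested. As a check of the tissue, summed levels were 65.9 to 1532 FPKM in ES and 262 to 850 FPKM in NES over 17 granulosa markers and 53.0 to 619.8 FPKM in ES and 131 to 214 FPKM in NES over 13 theca markers. The lowest theca sums were those of ES3 (53.0 FPKM) and ES4 (53.4 FPKM), and ES3 also had the lowest granulosa sum (65.9 FPKM). For 3 ES libraries the summed FPKM of a marker list stood far above the rest. ES3 had 467 FPKM over 14 macrophage markers, against 22.4 to 34.9 in the other ES libraries and 16.7 to 42.4 in NES. ES6 had 86.9 FPKM over 7 markers of surface mesothelium and epithelium, against 7.71 to 24.7 in the other ES libraries and 11.0 to 18.6 in NES. ES1 had 549 FPKM over 9 luteal markers, against 135.5 to 249 in the other ES libraries and 75.1 to 112 in NES.

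The question behind the comparison is how the level of NDNF differs between ovaries at estrus and ovaries of gilts without estrus. NDNF (MSTRG.22632) lies on chromosome 8 of the pig build Sscrofa11.1, plus strand, from 103047238 to 103095789, and no other locus of the table overlaps it. Levels are given as CPM, the count scaled to library size with TMM factors. In ES libraries NDNF ranged from 8.16 CPM in ES3 to 20.1 CPM in ES5 with a median of 14.1 CPM, against 29.5 CPM in NES6 to 49.5 CPM in NES3 with a median of 37.0 CPM in NES libraries. The groups did not overlap, and the lowest NES library stood 0.56 on the log2 scale above the highest ES library. NDNF averaged 14.2 ± 4.20 CPM in the ES ovaries, against 38.1 ± 8.45 CPM in the NES ovaries (SD, n = 6 each), a log2 difference of -1.42 ± 0.21 (SE). The counts behind these levels were 520 to 1230 in ES and 1843 to 3021 in NES, so counting error was small beside the spread between gilts.

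SH3TC2 (MSTRG.13258) lies on chromosome 2, minus strand, from 150180922 to 150248174, and no other locus overlaps it. In ES libraries it ranged from 14.6 CPM in ES1 to 34.0 CPM in ES6 with a median of 24.1 CPM, against 44.9 CPM in NES6 to 91.6 CPM in NES1 with a median of 66.6 CPM in NES libraries. Here too the groups did not overlap, with the lowest NES library 0.40 on the log2 scale above the highest ES library. SH3TC2 averaged 24.4 ± 6.71 CPM in the ES ovaries, against 67.4 ± 17.2 CPM in the NES ovaries (SD, n = 6 each), a log2 difference of -1.47 ± 0.22 (SE). Its counts were 846 to 2152 in ES and 2841 to 6428 in NES. Among all tested loci 0.906% had all 6 ES libraries below all 6 NES libraries, a share that says nothing about this pair, since both were picked on the same contrast.

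**Figure D1:**
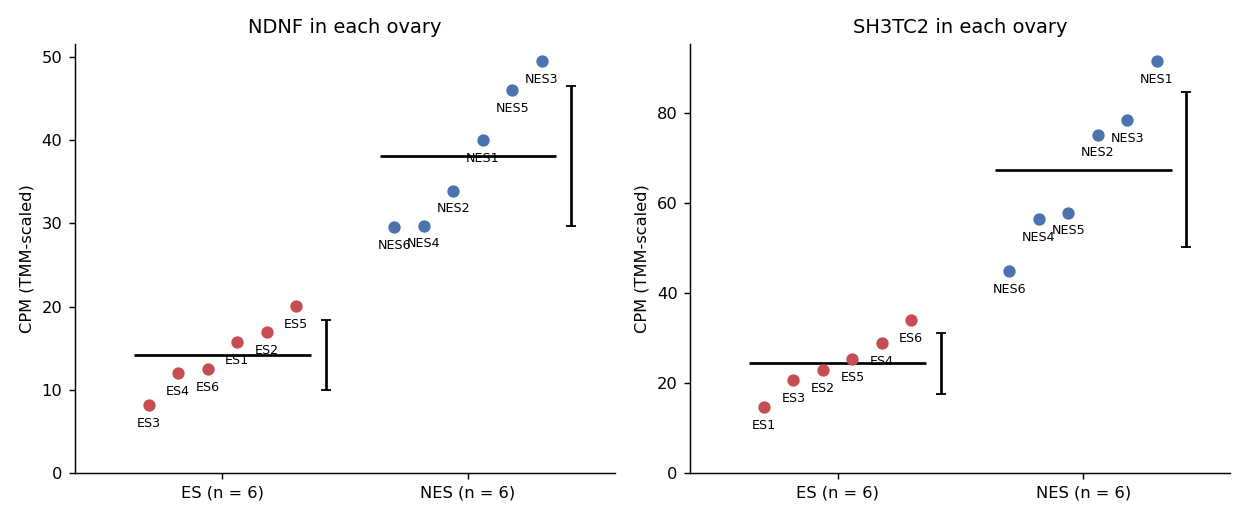
NDNF (left) and SH3TC2 (right) in each ovary, in CPM scaled with TMM factors. Each point is a library, placed in order of level within its group; the horizontal line is the group mean and the bar beside it the SD (n = 6). All ES points lie below all NES points for both genes, with NDNF at 8.16 to 20.1 CPM in ES and SH3TC2 at 14.6 to 34.0 CPM in ES.

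The differences did not rest on the libraries with a marker list far above the rest. Without ES1, ES3 and ES6 together the log2 difference was -1.22 for NDNF and -1.39 for SH3TC2. Leaving out any single library gave -1.55 to -1.31 for NDNF and -1.59 to -1.37 for SH3TC2. Relative spread is given by a coefficient of variation of 29.5% in ES and 22.2% in NES for NDNF, and of 27.5% in ES and 25.5% in NES for SH3TC2.

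Levels per length were set against those of all tested loci. NDNF averaged 0.944 ± 0.290 FPKM in the ES ovaries, against 2.69 ± 0.577 FPKM in the NES ovaries (SD, n = 6 each). Its level exceeded that of 11.5 to 30.3% of the tested loci in ES libraries and of 51.2 to 75.5% in NES libraries. SH3TC2 averaged 1.26 ± 0.378 FPKM in the ES ovaries, against 3.70 ± 1.01 FPKM in the NES ovaries, above 15.6 to 44.0% of the loci in ES and 60.1 to 84.1% in NES. The ratio of NDNF to SH3TC2 in FPKM was 0.475 in ES6 to 1.40 in ES1, against 0.563 in NES1 to 1.03 in NES5. The 2 ranges of the ratio overlapped.

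A pair of genes near these loci was read for comparison. ABLIM3, an actin-binding LIM protein, begins 12008 bases from SH3TC2 on the opposite strand. It averaged 31.5 ± 8.00 CPM in the ES ovaries, against 26.2 ± 8.37 CPM in the NES ovaries, a log2 difference of 0.27 ± 0.22 that did not pass edgeR's quasi-likelihood test (Benjamini-Hochberg adjusted p = 0.573). TNIP3, an inhibitor of NF-kappaB signalling, lies 55511 bases from NDNF. It was below the filter on low values, at 1.67 ± 0.509 CPM in the ES ovaries, against 2.61 ± 0.674 CPM in the NES ovaries.

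The order of libraries within the groups was set side by side for NDNF and SH3TC2. Pearson's r of log2(CPM + 0.5) between NDNF and SH3TC2 was -0.08 over the 6 ES libraries and 0.54 over the 6 NES libraries. With each group centred on its own mean it was 0.16 over 12 libraries (0.02 to 0.33 with any single library left out). Of 9426 named loci whose mean FPKM reached 1, 2818 had a higher centred r with NDNF than SH3TC2 had. NDNF was lowest in ES3 and highest in ES5 among ES libraries, while SH3TC2 was lowest in ES1 and highest in ES6. Among NES libraries NES6 was lowest and NES4 next for both genes, while NDNF was highest in NES3 and SH3TC2 in NES1. Without NES6 the r within NES was 0.29. Over all 12 libraries r was 0.84, a value that also carries the difference between the groups. All correlations here are descriptions across gilts that share library scaling and whole-ovary composition, and none was tested.

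The genes most like each of the pair were ranked in both ways. Over all 12 libraries the loci nearest to NDNF were HHIP (r = 0.97), ADAMTS12 (0.96), KCNN2 (0.95), PTCH1 (0.95) and EMP2 (0.94). HHIP, which binds hedgehog proteins outside the cell, and PTCH1, the hedgehog receptor, are both switched on by hedgehog signalling, the pathway through which granulosa cells address theca cells. ADAMTS12 is a secreted metalloprotease, KCNN2 a calcium-activated potassium channel and EMP2 an epithelial membrane protein. Over all 12 libraries the loci nearest to SH3TC2 were ANK2 (r = 0.96), SEPHS1 (0.95), MSH6 (0.94), ZNF689 (0.92) and CDC7 (0.92). ANK2 is ankyrin B, which ties membrane proteins to the cytoskeleton, MSH6 a mismatch repair protein and CDC7 a kinase that starts DNA replication. SEPHS1 is a relative of selenophosphate synthetase and ZNF689 a zinc finger protein.

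HHIP and PTCH1 followed NDNF from ovary to ovary within the ES group. HHIP was at 3.20 CPM in ES3, where NDNF was lowest, and at 16.9 CPM in ES5, where NDNF was highest. Within ES, r with NDNF was 0.96 for HHIP (0.95 to 0.98 with any ES library left out) and 0.99 for PTCH1 (0.98 to 1.00). Within NES it was 0.63 for HHIP (0.46 to 0.76 with any NES library left out) and 0.36 for PTCH1, whose value was about 0 without NES6. IHH, the hedgehog ligand made by granulosa cells, had r = 0.96 with NDNF within ES and 0.22 within NES, and GLI1, which carries the signal to the genome, 0.83 within ES and 0.09 within NES. GLI2, a related factor, had r of 0.88 within ES and -0.52 within NES. Without ES3, r with NDNF within ES was 0.93 for IHH, 0.63 for GLI1 and 0.69 for GLI2. With any NES library left out, r within NES was -0.01 to 0.77 for IHH, -0.53 to 0.51 for GLI1 and -0.90 to -0.27 for GLI2. Between the groups, IHH stood at log2 -3.01 ± 0.61 and GLI1 at -1.94 ± 0.30 (edgeR adjusted p = 0.0420 and 0.0337). For both, all 6 ES libraries were below all 6 NES libraries, as in 0.906% of all loci. GLI1 remained called in 11 of 22 alternatives. The log2 difference of GLI2, -0.34 ± 0.20, did not pass the test (edgeR adjusted p = 0.430). With SH3TC2, these hedgehog genes had r of -0.07 (HHIP), -0.18 (PTCH1), -0.10 (IHH), -0.41 (GLI1) and -0.16 (GLI2) within ES. Without ES3 these became -0.26, -0.49, -0.72, -0.79 and -0.52 in that order. Within NES, r with SH3TC2 was 0.63, 0.36, 0.88, 0.49 and -0.27 in the same order. Without NES6 it was -0.10 for HHIP, -0.27 for PTCH1 and -0.07 for GLI1. That of IHH was 0.82 to 0.99 with any NES library left out. The differences between these correlations were not tested.

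HHIP averaged 8.10 ± 5.11 CPM in ES, against 41.9 ± 13.1 CPM in NES (log2 -2.37 ± 0.40, edgeR adjusted p = 0.0358). PTCH1 averaged 141 ± 70.2 CPM in ES, against 512 ± 169 CPM in NES (log2 -1.86 ± 0.34, edgeR adjusted p = 0.0387). ADAMTS12 (log2 -0.92 ± 0.16) and KCNN2 (-1.43 ± 0.26) were lower in ES as well, and EMP2 stood at -0.64 ± 0.15 (edgeR adjusted p = 0.0371, 0.0380 and 0.0657). Genes most like NDNF over all 12 libraries had to differ between the groups as NDNF does, so these calls are no independent support for it. The calls also depend on single libraries. Leaving out NES1, NES3, NES4, NES5, ES2, ES4 or ES6 left no locus called, and leaving out NES2 left 1, beside 193 with all 12 libraries. At an unadjusted p under 0.05 there were 3328 loci with all 12 libraries and 2629 to 3811 with 1 left out. HHIP remained called in 11 of 22 alternatives, PTCH1, ADAMTS12 and KCNN2 in 10 each.

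ANK2 followed SH3TC2 in both groups. It was at 55.3 CPM in ES1, where SH3TC2 was lowest of all libraries, and at 450.2 CPM in NES1, where SH3TC2 was highest. Within ES, r between ANK2 and SH3TC2 was 0.81 (0.59 without ES1), and within NES it was 0.95 (0.93 to 0.99 with any NES library left out). ANK2 averaged 100.4 ± 35.5 CPM in ES, against 297 ± 111 CPM in NES (log2 -1.56 ± 0.30, edgeR adjusted p = 0.0390), and 5 of 6 ES libraries were below every NES library. CDC7 averaged 33.8 ± 10.9 CPM in ES, against 85.6 ± 24.0 CPM in NES (log2 -1.34 ± 0.24, edgeR adjusted p = 0.0371). With NDNF, ANK2 had r of 0.42 within ES and 0.67 within NES. ANK2 remained called in 9 of the 22 alternatives and CDC7 in 10. These genes were ranked by r with SH3TC2 over all 12 libraries and had to differ between the groups as it does, so their calls are no independent support. MSH6 (log2 -0.50 ± 0.10) and SEPHS1 (-0.47 ± 0.10) differed by less and remained called in 7 alternatives each, and ZNF689 stood at -0.37 ± 0.10 (edgeR adjusted p = 0.0430, 0.0479 and 0.0894).

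**Figure D2:**
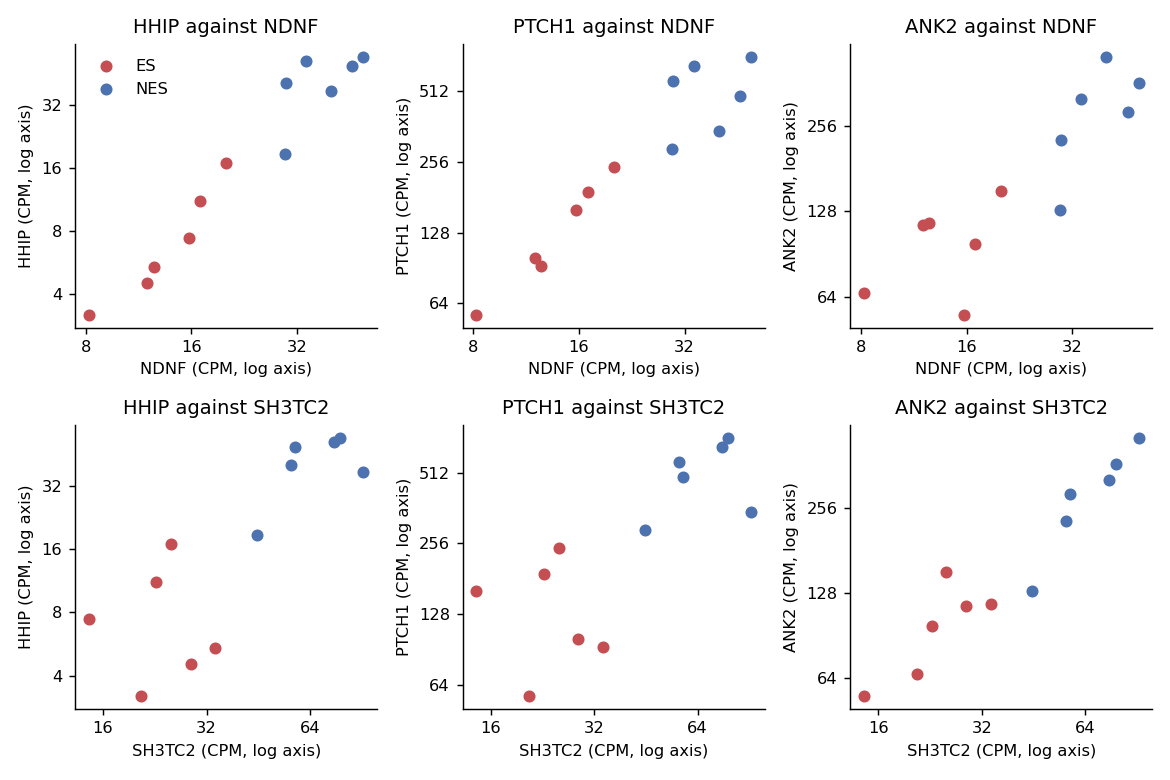
HHIP, PTCH1 and ANK2 (vertical axes) against NDNF (top row) and SH3TC2 (bottom row) in CPM, both axes on a log2 scale. Each point is a library, ES in red and NES in blue. Within ES, HHIP and PTCH1 rise with NDNF (r = 0.96 and 0.99) but not with SH3TC2 (r = -0.07 and -0.18), and ANK2 rises with SH3TC2 in both groups (r = 0.81 in ES and 0.95 in NES).

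The second ranking took the lower of r within ES and r within NES, so that a gene had to follow the pair in both groups and the difference between the groups played no part. Among 9424 named loci, r was negative and at least 0.8 in size in both groups for 46 with NDNF and 12 with SH3TC2. In the other direction, 20 had r of at least 0.8 with NDNF in both groups and 15 with SH3TC2. The highest of these r values come from many loci and 6 libraries a group, and they are ranks, not tests. The 10 nearest to NDNF were USP46 (r = 0.92 in ES and 0.98 in NES), ROBO2 (0.94 in ES and 0.91 in NES), MFN1, SF3A1, RPL22, ZNF280C, MYZAP, NCKAP5, HNRNPH1 and RYK (0.96 in ES and 0.83 in NES). USP46 removes ubiquitin from proteins, ROBO2 is a receptor for the guidance protein SLIT, MFN1 fuses mitochondria, and RYK is an atypical WNT receptor. SF3A1 and HNRNPH1 act in splicing, and RPL22 is a ribosomal protein. These 10 had log2 differences between ES and NES of -0.85 (RYK) to -0.14 (HNRNPH1), and none passed the test, with edgeR adjusted p of 0.118 to 0.504.

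The 10 nearest to SH3TC2 within both groups were SUGP2 (r = 0.94 in ES and 0.93 in NES), FBXO9 (0.89 in ES and 0.93 in NES), TEAD2 (0.90 in ES and 0.88 in NES), TAF9B, CEP41, ING1, DPY19L3, TSPYL1, SALL2 and DDX17. SUGP2 and DDX17 are RNA-binding proteins, FBXO9 is a subunit of a ubiquitin ligase, TEAD2 is a DNA-binding partner of YAP, and CEP41 is a centrosomal protein. Their log2 differences ran from -0.41 (SALL2) to 0.08 (FBXO9), with edgeR adjusted p of 0.249 to 0.949. No gene stood in both lists of 10.

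Genes that ran opposite to NDNF in both groups were led by HCN2, a pacemaker channel (r = -0.92 in ES and -0.97 in NES), CAPG, CTSZ, HSBP1 and COTL1. CAPG and COTL1 bind actin and CTSZ is a lysosomal protease. These 3 were at 170, 186 and 173 CPM in ES3 (CAPG, CTSZ and COTL1 in that order), and at most 23.1, 16.4 and 49.7 CPM in the other ES libraries. ES3 is also the library with the macrophage markers at 467 FPKM and with the lowest NDNF. Without ES3, r with NDNF within ES was -0.94 for CAPG, -0.80 for CTSZ and -0.62 for COTL1, against -0.93, -0.90 and -0.88 with all 6 ES libraries. Genes opposite to SH3TC2 were led by DIAPH2, a formin of the actin cytoskeleton (r = -0.94 in both groups), AGAP2, ABCC10, STARD13 and TMEM158.

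The cell type markers were then set beside the pair, as the median r of a marker list after centring each group. Over all tested loci that median was -0.01 with NDNF and 0.02 with SH3TC2. Single loci spread widely. Most named loci had a centred r of -0.68 to 0.59 with NDNF and of -0.54 to 0.57 with SH3TC2. The list medians were not tested against that spread. For NDNF the median r was 0.60 over 13 theca markers, 0.53 over 17 granulosa markers and 0.38 over 21 markers of dividing cells. The theca list holds HHIP, PTCH1, GLI1 and GLI2, and the granulosa list holds IHH. Their r with NDNF is given above, so the theca and granulosa medians are in part the same values and no separate support. The theca median was 0.82 within ES and 0.16 within NES. Without ES3 the centred theca and granulosa medians were 0.32 and 0.19, and that of the dividing cells was 0.38. Within ES the median of the dividing cells was 0.23 (0.05 without ES3), against 0.59 within NES. The granulosa median was 0.59 within ES (0.05 without ES3) and 0.46 within NES. The 14 macrophage markers had a median of -0.63 with NDNF, and all 14 had a negative r in each group. Without ES3 that median was -0.14, and the median within ES, -0.73 with all 6 libraries, was 0.43. Endothelial markers, of interest because of the known action of NDNF on endothelium, had a median of -0.03. Within ES their median was 0.07 (0.50 without ES3), with 9 of 14 positive. Within NES it was -0.33, with 11 of 14 negative.

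For SH3TC2 the markers of dividing cells gave opposite signs in the 2 groups. Within ES 19 of 21 had a negative r, with a median of -0.37, which became 0.39 without ES1. Within NES all 21 had a positive r, with a median of 0.84 (0.70 to 0.90 with any NES library left out). Most single named loci had r of -0.80 to 0.85 with SH3TC2 within NES. The difference between the groups was not tested. The summed level of these 21 markers was 29.3 to 47.2 FPKM in the ES ovaries, against 39.3 FPKM (NES6) to 150.2 FPKM (NES1) in the NES ovaries, the NES libraries in which SH3TC2 was lowest and highest among NES. All 21 had a negative log2 difference (median -1.47), as had 43.8% of all tested loci. Of the 21, 12 were called lower by edgeR with all libraries present, beside 0.793% of all loci, and their part in the levels of SH3TC2 was not tested. Endothelial markers had a median r of -0.53 with SH3TC2, with 12 of 14 negative within ES and 13 within NES. Smooth muscle and pericyte markers had a median of -0.43, with 12 of 16 negative within ES and all 16 within NES. Their median was -0.13 within ES, which became 0.38 without ES1, and -0.76 within NES. The 7 oocyte markers had a median of -0.50. The 7 markers of surface mesothelium and epithelium had one of 0.40, which was 0.08 without ES6, and one of 0.58 within ES. ES6 is the library with these surface markers at 86.9 FPKM and the ES library with the highest SH3TC2. Without ES1 the smooth muscle median was -0.28, and without NES6 the endothelial median was -0.36.

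**Figure D3:**
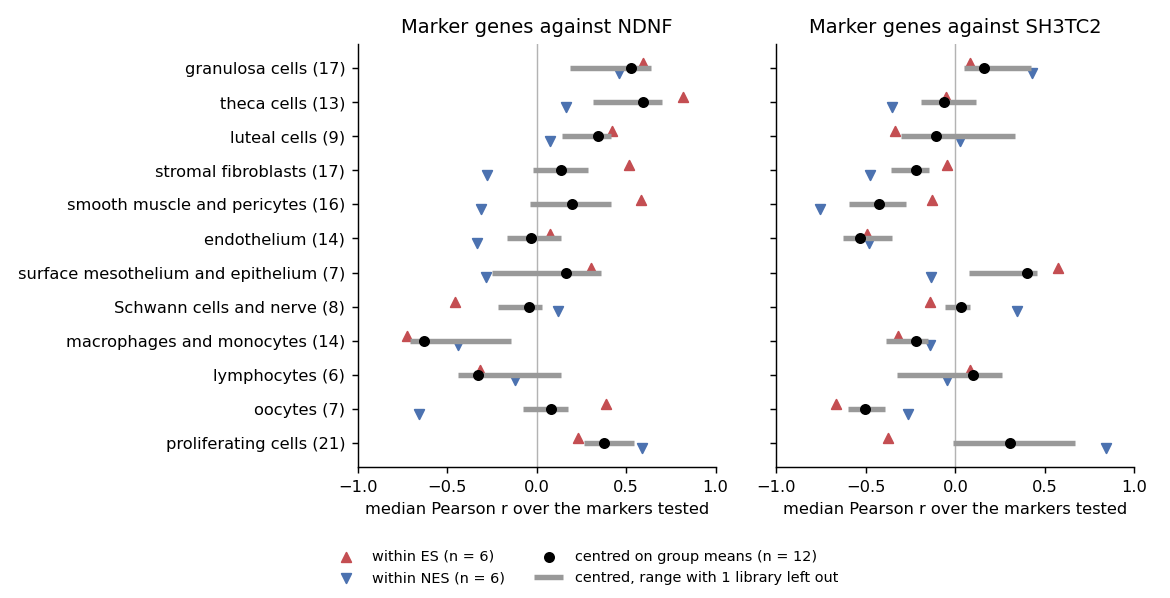
Median Pearson r of 12 marker lists with NDNF (left) and SH3TC2 (right), the number of markers tested in parentheses. Red and blue triangles are within ES and within NES (6 libraries each), black points are centred on the group means (12 libraries), and grey bars span the centred value with 1 library left out. Theca markers, which include HHIP, PTCH1, GLI1 and GLI2, stand at 0.60 with NDNF. Markers of dividing cells stand at -0.37 within ES and 0.84 within NES with SH3TC2.

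Markers of Schwann cells, in which SH3TC2 is best known, were in part too low to test in these ovaries. Of 20 markers of Schwann cells and nerve, 8 passed the filter on low values and 9 were below it. A further 2 had no locus, and 1 lay only in a locus joined with another gene. SOX10, a transcription factor of the Schwann lineage, averaged 1.05 FPKM in the ES ovaries, against 1.35 FPKM in the NES ovaries (log2 -0.27 ± 0.24, edgeR adjusted p = 0.608). SOX10 was the only one of the 8 with a negative log2 difference, and none of them passed the test. The 8 had 0.17 as their median log2 difference and a median centred r of 0.03 with SH3TC2.

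Genes of the pathways known for NDNF and SH3TC2 were read from 6 lists. None of the 120 genes tested passed the edgeR test (adjusted over all loci) in either direction, where 0.793% of all loci were called lower and 0.152% higher in ES. At an unadjusted p under 0.05 there were 22 of the 120, near the 16.3% of all loci. DESeq2 called 8, of which 5 were higher and 3 lower in ES, beside 2.37% higher and 3.06% lower over all loci. Those higher were FGFR2, FRS2, CHD7, ZFYVE27 and FGD4, and those lower were ERBB2, RAB11FIP2 and RAB11FIP5. Whether these 8 are called thus depends on the method, and the adjusted p given for them below is that of edgeR. The 120 log2 differences lay between -0.66 and 1.59, and 37 were negative, beside 43.8% of all loci.

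On the side of NDNF, 21 genes of the fibroblast growth factor system had a median log2 difference of 0.01, beside 0.04 over all loci. FGFR1, the receptor that NDNF dampens in human cells, averaged 149 ± 30.3 CPM in the ES ovaries, against 152 ± 20.4 CPM in the NES ovaries (log2 -0.03 ± 0.14, edgeR adjusted p = 0.950). FGFR2, a further receptor, averaged 18.6 ± 7.21 CPM in the ES ovaries, against 10.1 ± 3.07 CPM in the NES ovaries (log2 0.88 ± 0.27, edgeR adjusted p = 0.135). FRS2, the adaptor that links these receptors to RAS, stood at 1.20 ± 0.36 and HS6ST1, which sulphates the heparan chains that bind growth factors, at -0.66 ± 0.20 (edgeR adjusted p = 0.136 and 0.145). FRS2 stood at 0.66 without ES1, ES3 and ES6. Of the genes of human hypogonadotropic hypogonadism, 29 were tested, with a median of 0.10. CHD7, a chromatin remodeller, stood at 0.58 ± 0.17 and PLXNA1, a semaphorin receptor, at -0.37 ± 0.14 (edgeR adjusted p = 0.119 and 0.217). ANOS1, which like NDNF is secreted and carries fibronectin type III domains, was below the filter, at 0.401 FPKM in the ES ovaries, against 0.492 FPKM in the NES ovaries.

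The 19 integrin and survival genes had 0.17 as their median log2 difference. ITGAV, the alpha-v subunit, averaged 208 ± 148 CPM in the ES ovaries, against 126 ± 19.5 CPM in the NES ovaries (log2 0.72 ± 0.33, edgeR adjusted p = 0.307). ITGB3, its beta-3 partner, averaged 53.9 ± 84.4 CPM in the ES ovaries, against 23.5 ± 4.75 CPM in the NES ovaries (log2 1.20 ± 0.68, edgeR adjusted p = 0.405). Both integrin values rested on ES3, at 502 CPM for ITGAV and 225 CPM for ITGB3. Without ES3 ITGAV stood at 0.24 and ITGB3 turned to -0.26. ITGA5 (0.87 ± 0.30) and the kinase PDPK1 (0.23 ± 0.11) had edgeR adjusted p of 0.190 and 0.308.

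On the side of SH3TC2, 35 genes of the RAB11 recycling endosome had a median log2 difference of 0.12. Neither GTPase passed the test, with RAB11A at 59.7 ± 12.3 CPM in the ES ovaries, against 52.6 ± 7.82 CPM in the NES ovaries (log2 0.18 ± 0.15, edgeR adjusted p = 0.575) and RAB11B at 21.8 ± 1.12 CPM in the ES ovaries, against 21.9 ± 2.50 CPM in the NES ovaries (log2 -0.01 ± 0.10, edgeR adjusted p = 0.968). RAB11FIP2, which couples RAB11 to a myosin motor, averaged 138 ± 35.6 CPM in the ES ovaries, against 207 ± 20.5 CPM in the NES ovaries (log2 -0.59 ± 0.16, edgeR adjusted p = 0.110). All 6 ES libraries were below all 6 NES libraries for RAB11FIP2, the only one of the 35 to do so, as in 0.906% of all loci. RAB11FIP5, a related effector, stood at -0.46 ± 0.14 (edgeR adjusted p = 0.135). ZFYVE27, known as protrudin, averaged 57.9 ± 18.9 CPM in the ES ovaries, against 35.5 ± 3.25 CPM in the NES ovaries (log2 0.70 ± 0.18, edgeR adjusted p = 0.0898), and its 6 ES values exceeded all 6 NES values, as in 0.509% of all loci. SH3TC1, the relative of SH3TC2, averaged 43.1 ± 17.8 CPM in the ES ovaries, against 33.0 ± 6.29 CPM in the NES ovaries (log2 0.39 ± 0.23, edgeR adjusted p = 0.437).

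Of the neuregulin and ERBB genes, 9 were tested, with a median log2 difference of 0.10. ERBB2, the receptor tied to SH3TC2 in mouse Schwann cells, averaged 46.8 ± 10.7 CPM in the ES ovaries, against 65.6 ± 3.87 CPM in the NES ovaries (log2 -0.49 ± 0.15). Its 6 ES values lay under all 6 NES values, as in 0.906% of all loci, yet it did not pass the test over all loci (edgeR adjusted p = 0.138). The ERBB2 range was 28.5 CPM in ES3 to 56.8 CPM in ES6, against 61.5 CPM in NES1 to 71.1 CPM in NES3. The ligand gene NRG1 was low, at 3.71 ± 2.40 CPM in the ES ovaries, against 4.13 ± 1.14 CPM in the NES ovaries (log2 -0.15 ± 0.37), and ERBB3 lay only in a locus joined with another gene and was left out. ADAM17, a protease that releases ERBB ligands, and ERBIN, a scaffold that binds ERBB2, stood at 0.58 ± 0.25 and 0.28 ± 0.13 (edgeR adjusted p = 0.270 and 0.317), and ADAM17 at 0.17 without ES1, ES3 and ES6. Among 14 genes of demyelinating neuropathies the median was 0.19. FGD4, an exchange factor for CDC42, averaged 78.0 ± 69.3 CPM in the ES ovaries, against 25.8 ± 6.51 CPM in the NES ovaries (log2 1.59 ± 0.43, edgeR adjusted p = 0.0979, and 0.96 without ES3, where it was at 215 CPM). HK1, a hexokinase, and MFN2, which fuses mitochondria, stood at 0.59 ± 0.28 and 0.20 ± 0.11 (edgeR adjusted p = 0.313 and 0.366).

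**Figure D4:**
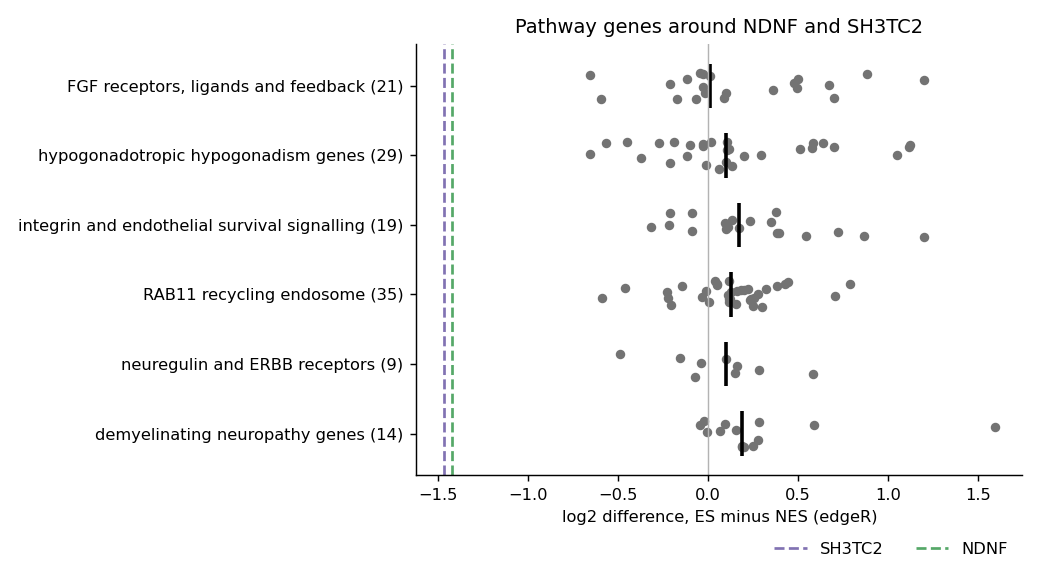
Log2 differences, ES minus NES, of the tested genes in 6 lists around NDNF and SH3TC2 (number of genes in parentheses). Each grey point is a gene, each black bar the median of its list, and the dashed lines mark SH3TC2 (-1.47) and NDNF (-1.42). All 120 genes lie to the right of both dashed lines, between -0.66 and 1.59.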

How the data were processed

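Left ovaries of 6 ES and 6 NES gilts were compared, grouped by sample title, each from a separate gilt. Per the labels' protocols, libraries were rRNA-depleted and strand-specific (dUTP). Per the submitters' processing notes, TopHat, HISAT2, cutadapt and FastQC were used with build Sscrofa11.1. How reads were counted, and with which strand setting, is not given in the sources used here. Raw counts and FPKM values per locus were deposited by the authors, per the file headers, and all 24 per-sample columns were used. Unnamed loci took 4.47 to 6.60% of all counts and were kept in the totals.

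Bare identifiers were named from a name table (1036 loci) or from RefSeq, same build, at a reciprocal overlap of 0.5 or more (637 loci). A symbol on several loci was represented by the locus with the highest mean count, and the 1369 joined loci were left out of the lists. Loci whose mean FPKM reached 0.5 were fitted with edgeR's quasi-likelihood test on counts, TMM factors and no covariate. P-values were adjusted by Benjamini-Hochberg over all 20421 loci and called under 0.05. The SE is the log2 difference divided by the square root of F. Likeness is Pearson's r of log2(CPM + 0.5).

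The members and lists were chosen with earlier results of these data known. Genes were named by rule: the 10 with the highest lower-of-two within-group r, the 5 most opposite and the 5 with the highest r over 12 libraries (mean FPKM of at least 1), the called members and the 3 smallest p-values of each pathway list, and a few fixed partners. HHIP and PTCH1 came by that rule; IHH, GLI1, GLI2, TNIP3, ABLIM3 and SOX10 were looked up beside it. Some results are not reported here. The fit and the ranking were tested on simulated data. The labels do not tie replicate numbers to litters, so the main fit leaves out which gilts were sisters. Alternatives were DESeq2, median-of-ratios factors, other filters, limma on log2(FPKM + 0.5), 0.1 or 1, the replicate block, Spearman's rho and libraries left out; the fit without ES1, ES3 and ES6 was added after seeing the data. Fits used edgeR 4.0.16, DESeq2 1.42.0 and limma 3.58.1 under R 4.3.3. Tables and plots used scipy 1.17.1, numpy 2.4.6, pandas 2.3.3 and matplotlib 3.10.9 under Python 3.11.15.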

Additional observations from a re-analysis of the deposited data

Results flagged for a closer look

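In 14 of 136 groups of 6 libraries looked at, 1 library stood apart from the other 5 of its group by Dixon's ratio of gap to range. Chance alone gives about 1 such group in 20. NDNF and SH3TC2 were not among them. ADAM17 was at 349 CPM in ES1, against 110 to 197 CPM in the rest of that group. AGAP2 was at 33.1 CPM in ES1, against 16.7 to 21.6 CPM in the rest of that group. TMEM158 was at 11.2 CPM in ES1, against 3.33 to 5.37 CPM in the rest of that group. ITGAV was at 502 CPM in ES3, against 93.3 to 194 CPM in the rest of that group. ITGB3 was at 225 CPM in ES3, against 12.8 to 35.9 CPM in the rest of that group. FGD4 was at 215 CPM in ES3, against 32.2 to 71.9 CPM in the rest of that group. CAPG was at 170 CPM in ES3, against 8.48 to 23.1 CPM in the rest of that group. CTSZ was at 186 CPM in ES3, against 6.38 to 16.4 CPM in the rest of that group. COTL1 was at 173 CPM in ES3, against 20.2 to 49.7 CPM in the rest of that group. CEP41 was at 9.71 CPM in ES6, against 4.52 to 6.35 CPM in the rest of that group. FRS2 was at 248 CPM in NES1, against 140 to 165 CPM in the rest of that group. HK1 was at 97.9 CPM in NES1, against 63.0 to 75.2 CPM in the rest of that group. ZNF689 was at 44.6 CPM in NES1, against 35.6 to 37.1 CPM in the rest of that group. CHD7 was at 27.6 CPM in NES6, against 19.3 to 21.9 CPM in the rest of that group.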

How the results depend on the processing

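Of 22 alternatives, 21 left the log2 differences of NDNF and SH3TC2 within the spread between libraries, and none turned a sign. With limma on log2(FPKM + 1) they stood at -0.92 and -1.05, a scale that understates low genes. With 1 library left out they ranged from -1.55 to -1.31 for NDNF and from -1.59 to -1.37 for SH3TC2. The count of loci called, 193 in the edgeR fit, was 1065 with DESeq2 (465 higher and 600 lower in ES), 28 with no filter, 330, 322 and 337 with limma on log2(FPKM + 0.5), 0.1 and 1, 1 without ES3 and ES6, 3 without ES1, ES3 and ES6 (added after seeing the data), and 0 to 415 with 1 library left out. Of the 193 calls 162 were lower in ES. DESeq2 called 8 members of the pathway lists, and every other alternative called 0.

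The fit with the replicate number as a block called 0 loci (2708 at an unadjusted p under 0.05) and gave -1.44 for NDNF and -1.47 for SH3TC2. Same-numbered libraries had correlated deviations of -0.07 to 0.29, and 2 of 6 ES libraries were closest to the NES library of their own number. With 6 ES libraries this check cannot tell whether the numbers mark sisters. As no label ties them to litters, the numbers were not taken as pairs in the main fit. Its p-values treat sisters as unrelated gilts.

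Of the 10 genes most like each gene, 3 remained with Spearman's rho for NDNF and 5 for SH3TC2, and 3 to 8 and 2 to 9 with 1 library left out. Without ES3 and ES6, FGFR1 stood at 0.10, ITGB3 at -0.22, RAB11B at 0.0133 and NRG1 at 0.17. Without ES1, ES3 and ES6, FGFR1 stood at 0.0398, ITGB3 at -0.66, RAB11A at -0.0651 and HK1 at -0.00841. With 1 library left out FGFR1 ranged from -0.0998 to 0.0530, ITGB3 from -0.26 to 1.40, RAB11B from -0.0509 to 0.0213 and NRG1 from -0.545 to 0.0136. The median r of lymphocyte markers with NDNF was 0.15 without ES3 and ES6 and -0.44 to 0.14 with 1 library left out, and that of dividing cells with SH3TC2 was -0.0142 to 0.668. The cause of these shifts was not tested. With 6 libraries a group, a within-group r rests on few points.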
